A study of Mus musculus with 12 samples.

Results

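The unfolded protein response and ER folding module is a set of 40 genes, out of the 47632 genes measured, whose products sense misfolded protein in the endoplasmic reticulum (ER) or carry proteins into it, fold them, or remove them. The rule was a list of gene symbols with no threshold on a measured value, and all 40 symbols had a row in every table. They comprise 8 stress sensors and transcription factors, 12 chaperones and co-chaperones, 6 disulphide enzymes, 7 components of ER-associated degradation and 7 subunits of the translocon and its partner complex.

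RNA was measured in epithelial cells isolated from the colon of C57/BL6 mice of 2 genotypes. Tfeb ΔIEC animals lack the transcription factor gene Tfeb where a villin-driven Cre recombinase acts, which is the intestinal epithelium, and Tfeb flox/flox animals carry the floxed allele without Cre. The comparison asked how loss of Tfeb in the epithelium alters gene expression before and during colitis caused by dextran sulfate sodium (DSS), given at 2.5% according to the labels. The study's methods give a lower concentration, and by those methods DSS was followed by a recovery period, at the end of which Day 11 fell. Tissue was taken on Day 0, before DSS, from animals of 10 and 12 weeks, on Day 4 from animals of 12 weeks, and on Day 11 from animals of 10 weeks. Each genotype had 2 animals per day, 12 in all, and the deposited tables give 1 value for both, so no spread between animals is available and every difference below is a description without a test. Values are FPKM, a fragment count divided by transcript length and library size, which the authors made comparable between genotypes within a day but not across days. Age also differs between Day 4 and Day 11 and cannot be told apart from the day.

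A protein enters the ER through the Sec61 channel, is held by chaperones such as BiP (the product of Hspa5) and the lectins calnexin and calreticulin, and receives its disulphide bonds from protein disulphide isomerases. When unfolded protein builds up, the sensors IRE1, PERK and ATF6 signal to the nucleus. IRE1 removes an intron from Xbp1 mRNA, and the spliced form encodes a transcription factor that acts on genes for folding and degradation. In the gut this pathway is best known for goblet and Paneth cells, which secrete large amounts of protein. FPKM per gene does not separate spliced from unspliced Xbp1, so the values below give the amount of Xbp1 mRNA and not the activity of the pathway.

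XBP1 and ATF6 are known to act through the ER stress response element (ERSE), which is CCAAT and CCACG with 9 bases of any kind between them, and RefSeq promoter sequences on GRCm38.p6, of the 300 bases around the annotated start, matched 30 of the 40 members. The element was searched on both strands. It was found in 39 of 32851 promoters (0.119%) and in 8 of the 30 members (26.7%), which are Hspa5, Calr, Canx, Hsp90b1, Pdia6, Dnajc3, Creld2 and Syvn1. The promoter of Hspa5 is shown because it is the textbook target, with the element in capitals. It lies at chr2:34771840-34772139 on the plus strand:

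Hspa5: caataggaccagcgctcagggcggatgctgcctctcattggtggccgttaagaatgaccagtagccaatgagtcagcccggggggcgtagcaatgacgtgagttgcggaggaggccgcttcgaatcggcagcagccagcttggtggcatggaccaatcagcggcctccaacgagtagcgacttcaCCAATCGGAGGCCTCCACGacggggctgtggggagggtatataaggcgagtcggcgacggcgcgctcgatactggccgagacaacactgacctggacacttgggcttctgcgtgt

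The other 7 elements are shown with 15 bases on either side, in the direction in which CCAAT comes before CCACG, because the genes that carry them differed in their values. The windows lie at chr8:84847060-84847108 on the plus strand for Calr, chr10:86705518-86705566 plus for Hsp90b1, chr11:50325785-50325833 minus for Canx, chr12:17266476-17266524 plus for Pdia6, chr14:118937812-118937860 plus for Dnajc3, chr15:88819505-88819553 minus for Creld2 and chr19:6046517-6046565 plus for Syvn1. For Hsp90b1 1 of its 2 matches is shown.
Calr: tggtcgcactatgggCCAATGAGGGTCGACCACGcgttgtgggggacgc
Hsp90b1: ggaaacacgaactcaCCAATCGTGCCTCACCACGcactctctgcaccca
Canx: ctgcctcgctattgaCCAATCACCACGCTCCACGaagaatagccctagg
Pdia6: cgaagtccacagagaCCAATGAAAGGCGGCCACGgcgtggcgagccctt
Dnajc3: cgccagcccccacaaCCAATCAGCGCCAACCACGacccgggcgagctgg
Creld2: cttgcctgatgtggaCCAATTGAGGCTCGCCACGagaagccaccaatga
Syvn1: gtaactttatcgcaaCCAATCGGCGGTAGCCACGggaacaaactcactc

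The promoter of Pdia4, the member with the largest genotype difference, is shown for contrast, since none of the motifs searched was found in its 300 bases. It lies at chr6:47813463-47813762 on the minus strand:

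Pdia4: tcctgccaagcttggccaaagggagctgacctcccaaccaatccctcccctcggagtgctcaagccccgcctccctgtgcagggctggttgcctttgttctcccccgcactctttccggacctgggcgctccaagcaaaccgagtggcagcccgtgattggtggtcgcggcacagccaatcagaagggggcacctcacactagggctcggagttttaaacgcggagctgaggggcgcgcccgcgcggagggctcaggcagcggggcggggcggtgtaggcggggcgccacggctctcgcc

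The related ERSE-II element, ATTGG and CCACG with 1 base between them, was found in 0.0365% of all promoters and in those of Dnajb11 and Herpud1. The XBP1 element TGACGTGG was found in 0.676% of all promoters and in no member. The E-box CACGTG, a sequence bound by many factors of the basic helix-loop-helix class to which TFEB belongs, was found in 7.15% of all promoters and in Calr, Dnajb9 and Ssr1. The longer form that is typical of lysosomal genes, the E-box preceded by GT and followed by AC, was found in 0.326% of all promoters and only in Calr among the members, over the same bases as its E-box. These matches describe letters in a short window, and binding was not measured.

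The deletion was checked first in the values of Tfeb itself, a gene of low level in these tables. Tfeb was at 0.901 FPKM in Tfeb flox/flox and 0.185 FPKM in Tfeb ΔIEC on Day 0. It was at 1.08 and 1.18 FPKM in Tfeb flox/flox on Days 4 and 11, and listed at 0 in Tfeb ΔIEC on both days. The defining epithelial markers Epcam and Krt8 were between 982 and 2048 FPKM in all 6 values, and the stromal marker Col1a1 was at or below 0.0639 FPKM in all 6 values. The Day 4 and Day 11 tables resembled each other closely: 14.3% of 11746 genes above 0 on both days in Tfeb flox/flox had identical FPKM, and 10.2% of 12826 in Tfeb ΔIEC, although none of the 40 members did. The Day 11 values are therefore given beside those of Day 4 and not as a second observation.

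Of the 5 roles, the disulphide enzymes had the largest median difference between the genotypes on Days 4 and 11, when all 5 with at least 1 FPKM were higher in Tfeb ΔIEC. The chaperone genes Hspa5, Calr and Canx were also higher on both days, as was Xbp1, while ER-associated degradation was mixed and the translocon was split between subunits far higher and far lower. Differences were taken as log2(FPKM + 1) in Tfeb ΔIEC minus that in Tfeb flox/flox, for genes with at least 1 FPKM in either genotype, and a gene was counted as higher or lower from a 2-fold difference on this scale. On Day 4, 36 members reached 1 FPKM, of which 17 were higher (47.2%) and 6 were lower (16.7%), while of all 9371 genes 25.6% were higher and 26.1% lower. The median difference was 0.98 over the members and 0.06 over all genes. On Day 11, 18 of 36 members were higher (50.0%) and 6 were lower (16.7%), against 26.1% and 25.7% of 9365 genes, with medians of 1.04 and 0.08. The members counted as higher on both days numbered 16, and the same 6 (Sec61b, Ssr4, Creb3l1, Ddit3, Manf and Syvn1) were lower on both. On Day 0, before DSS, 2 of 37 members were higher (Ssr3 and Canx, 5.41%) and 1 was lower (Sec61b, 2.70%), fewer than the 13.5% and 16.1% of 9993 genes.

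**Figure D1:**
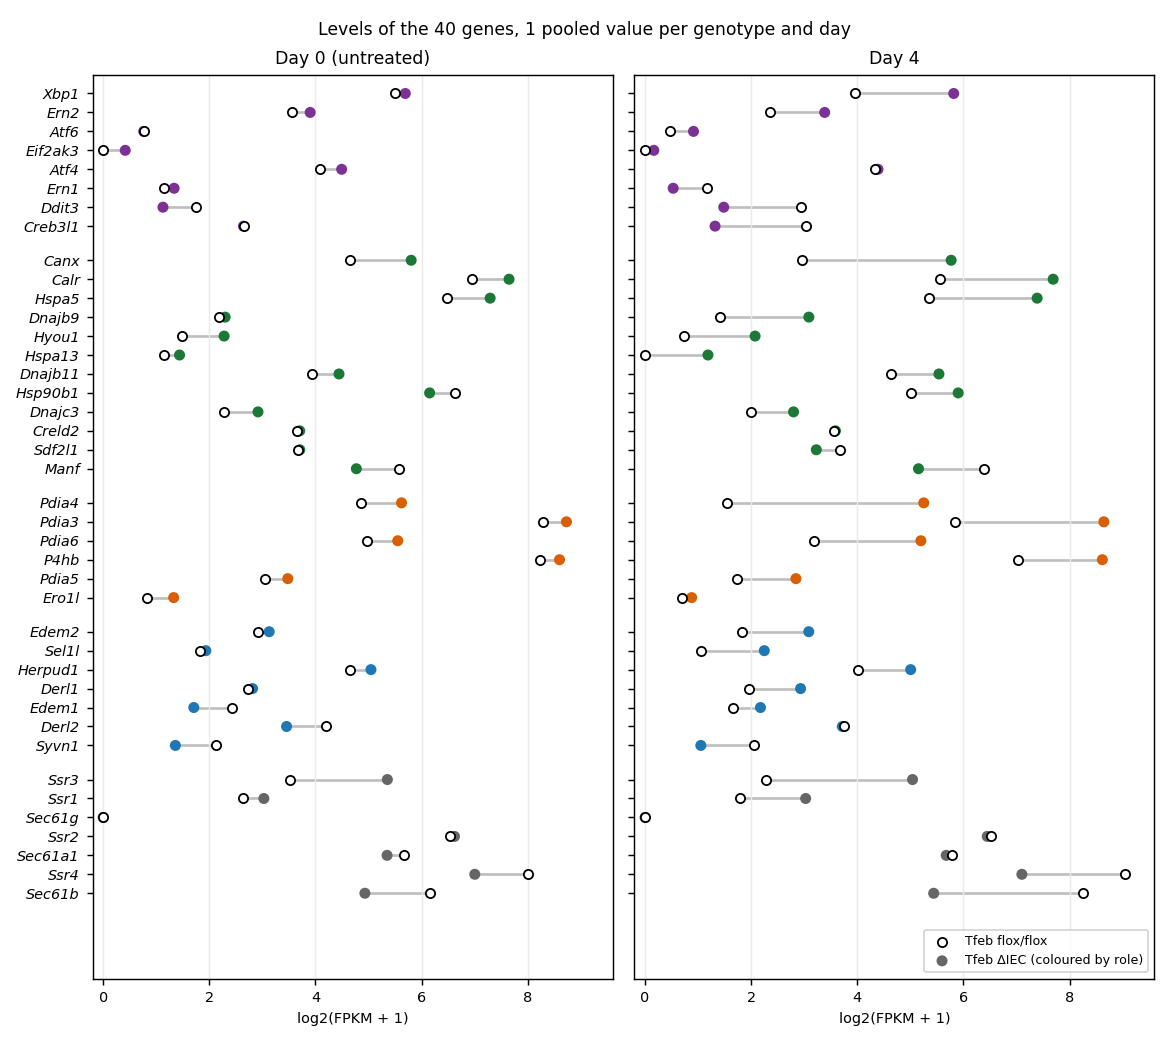
Level of each of the 40 genes as log2(FPKM + 1) on Day 0 (left) and Day 4 (right), with Tfeb flox/flox as open circles, Tfeb ΔIEC as filled circles coloured by role (from top, sensors and transcription factors, chaperones, disulphide enzymes, ER-associated degradation, translocon) and a grey line joining the genotypes, 1 pooled value each. The circles lie close together on Day 0, and on Day 4 the disulphide enzymes, from 6.18 to 400 FPKM in Tfeb ΔIEC apart from Ero1l at 0.838, lie to the right of Tfeb flox/flox.

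These counts depend on scale. The FPKM values of all genes summed to 1460000 in Tfeb flox/flox and 820000 FPKM in Tfeb ΔIEC on Day 4, against 975000 and 974000 on Day 0. When each value was divided by the sum of its group, the median of all genes on Day 4 moved to 0.75, and 23 of 37 members were higher and 3 lower, against 42.2% and 15.2% of all genes. On Day 11 the same scaling gave 22 members higher and 3 lower of 36, and 42.5% of all genes were higher. A 4-fold difference on Day 4 was reached by 7 members upward (Pdia4, Canx, Pdia3, Ssr3, Calr, Hspa5 and Pdia6, 19.4%, with 7.36% of all genes) and by 1 downward (Sec61b, with 10.3% of all genes). Herpud1 at 0.99 and Derl1 at 0.98 lay just inside 2-fold on Day 4, and Ern2 at 1.04 and Syvn1 at -1.01 just beyond it.

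Xbp1 (ENSMUSG00000020484.18, chr11:5520659-5525893 on the plus strand of GRCm38) encodes the transcription factor of the IRE1 branch. It was at 44.3 FPKM in Tfeb flox/flox and 50.8 FPKM in Tfeb ΔIEC on Day 0. It was at 14.6 and 55.4 FPKM on Day 4, and at 14.8 and 57.3 FPKM on Day 11. In FPKM the level in Tfeb ΔIEC lay between 50.8 and 57.3 on all 3 days. The 3.79-fold and 3.87-fold differences of Days 4 and 11 went with a lower FPKM in Tfeb flox/flox. The days were normalized separately and the FPKM sums given above changed between Days 0 and 4, so this reading across days depends on scale.

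Of the sensors themselves, only Ern2 was counted as higher, on Day 4, and none was counted as lower. Ern2, the IRE1 form of mucosal epithelium, was at 10.8 FPKM in Tfeb flox/flox and 13.9 FPKM in Tfeb ΔIEC on Day 0, 4.09 and 9.45 on Day 4, and 4.41 and 9.73 on Day 11. Ern1, the IRE1 form of most tissues, was at 1.21 and 1.53 FPKM on Day 0, 1.24 and 0.444 on Day 4, and 1.36 and 0.461 on Day 11. These values are low, and those of Day 4 are worth only about 2.8 and 2.2 steps, a step being roughly 1 fragment. On the log2(FPKM + 1) scale Ern1 was within 2-fold on all 3 days. It reached 1 FPKM on Days 4 and 11 only in Tfeb flox/flox. The other sensors were close to the floor. Eif2ak3, which encodes PERK, was listed at 0 in Tfeb flox/flox on all 3 days and at 0.334 FPKM or less in Tfeb ΔIEC, and Atf6 was at 0.883 FPKM or less throughout.

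The other transcription factors, Atf4, Ddit3 and Creb3l1, were not counted as higher on any day. Of these, Atf4 and Ddit3 act downstream of PERK. Atf4, which is controlled mainly at translation, was at 15.9 FPKM in Tfeb flox/flox and 21.5 FPKM in Tfeb ΔIEC on Day 0, 19.3 and 20.0 on Day 4, and 19.9 and 22.3 on Day 11, a difference of 0.05 on the log2 scale on Day 4. Ddit3, which encodes the death-associated factor CHOP, was at 2.36 and 1.18 FPKM on Day 0, 6.72 and 1.80 on Day 4, and 7.60 and 1.77 on Day 11, so that Tfeb flox/flox was 3.74-fold higher on Day 4. Creb3l1, an ER-anchored factor released by proteolysis and known in secretory cells, was at 5.29 and 5.25 FPKM on Day 0, 7.20 and 1.49 on Day 4, and 8.31 and 1.73 on Day 11. Of the 6 sensors and factors that reached 1 FPKM on Day 4, 2 were higher and 2 lower, with a median of -0.29, and of all genes 25.6% were higher and 26.1% lower. With a pseudocount of 5, 1 was higher and 0 lower (9.33% and 13.6% of all genes), with Ern2 at 0.67 and Creb3l1 at -0.91. After subtraction of the median of genes of like length, 1 was higher and 1 lower (20.1% and 20.8% of all genes), with Ern2 at 0.39. Ddit3 was within 2-fold on Day 4 after subtraction of the median of genes of like length (-0.81), after division by the group sum (-0.81) and with a pseudocount of 5 (-0.79).

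The disulphide enzymes form and rearrange the bonds between cysteines. Pdia4 (ENSMUSG00000025823.9, chr6:47796141-47813430 on the minus strand) had the largest difference of all members on Days 4 and 11 on the log2(FPKM + 1) scale. It was at 28.0 FPKM in Tfeb flox/flox and 48.3 FPKM in Tfeb ΔIEC on Day 0, 1.94 and 37.1 on Day 4, and 1.85 and 38.9 on Day 11, a 19.2-fold and a 21.0-fold difference on the last 2 days. Its Day 4 value in Tfeb flox/flox is worth about 7.9 steps, so the size of this ratio rests on few fragments. With a pseudocount of 5 its Day 4 difference (2.60) was below that of Pdia3 (2.72). Pdia3, which works on glycoproteins held by calnexin and calreticulin, was far more abundant, at 313 and 424 FPKM on Day 0, 56.6 and 400 on Day 4, and 47.2 and 352 on Day 11. P4hb, which encodes the founding isomerase of the family, was at 302 and 387 FPKM on Day 0, 129 and 392 on Day 4, and 118 and 414 on Day 11. Of the 5 isomerases, Pdia5 had the smallest difference on Days 4 and 11, at 7.29 and 10.2 FPKM, 2.31 and 6.18, and 2.37 and 6.82 on the 3 days. All 5 isomerases were thus higher in Tfeb ΔIEC by 1.12 to 3.70 on the log2 scale on Day 4, with Pdia6 at 2.02 and a median of 2.02. Of all genes 25.6% were higher on Day 4. All 5 have transcripts of over 1500 nt, and of all genes of 1500 nt or more 32.1% were higher. Pdia5 was within 2-fold on Day 4 after subtraction of the median of genes of like length (0.93) and with a pseudocount of 5 (0.61). Ero1l, the oxidase that recharges them, stayed under 1 FPKM in both genotypes on Days 4 and 11.

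Among the 12 chaperones and co-chaperones, 6 were higher and 1 was lower on Day 4 and 8 and 1 on Day 11, with medians of 1.05 and 1.17, while of all genes 25.6% were higher and 26.1% lower on Day 4 and 26.1% and 25.7% on Day 11. The number higher was 4 on both days after subtraction of the median of genes of like length, when 20.1% of all genes were higher on either day. With a pseudocount of 5 it was 3 on Day 4 and 4 on Day 11, when 9.33% and 9.28% of all genes were higher. Canx, which encodes calnexin, had the largest difference of the group, at 24.0 FPKM in Tfeb flox/flox and 54.9 FPKM in Tfeb ΔIEC on Day 0, 6.80 and 53.5 on Day 4, and 5.57 and 49.6 on Day 11. Calr, its soluble counterpart calreticulin, was at 122 and 200, 46.4 and 206, and 38.4 and 172 FPKM on the 3 days. Hspa5 (ENSMUSG00000026864.13, chr2:34771970-34777547 on the plus strand), the chief Hsp70 of the ER and its usual stress reporter, was at 88.3 and 156, 39.7 and 167, and 44.1 and 179 FPKM. In these 3 abundant genes the Day 4 value of Tfeb ΔIEC was between 4.20-fold and 7.87-fold that of Tfeb flox/flox. Hsp90b1, the ER form of Hsp90, was the lower one in Tfeb ΔIEC on Day 0, at 98.4 and 70.1 FPKM, and the higher one on Day 4, at 31.2 and 58.8 FPKM, and on Day 11, at 29.0 and 63.0 FPKM.

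The cofactors of Hspa5 spread widely. Dnajb9, a J-domain partner induced through XBP1, was at 1.66 FPKM in Tfeb flox/flox and 7.50 FPKM in Tfeb ΔIEC on Day 4, and Dnajb11 and Dnajc3 lay just inside 2-fold at 0.91 and 0.80 on the log2 scale. Hyou1, a large Hsp70 relative, and Hspa13 reached 1 FPKM only in Tfeb ΔIEC on Day 4, at 3.21 and 1.27 FPKM beside 0.662 and a listed 0, so both passed the filter only through the genotype in which they were higher. Creld2 lay between 10.7 and 12.0 FPKM in all 6 values and had the smallest genotype difference of the group on Days 4 and 11. Manf, a secreted protein of the stress response, went the other way, at 46.4 and 26.3 FPKM on Day 0, 82.8 and 34.6 on Day 4, and 75.0 and 28.6 on Day 11, although after division by the group sum it was within 2-fold on Day 4 (-0.41). Sdf2l1 was at 11.7 and 8.37 FPKM on Day 4, within 2-fold.

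**Figure D2:**
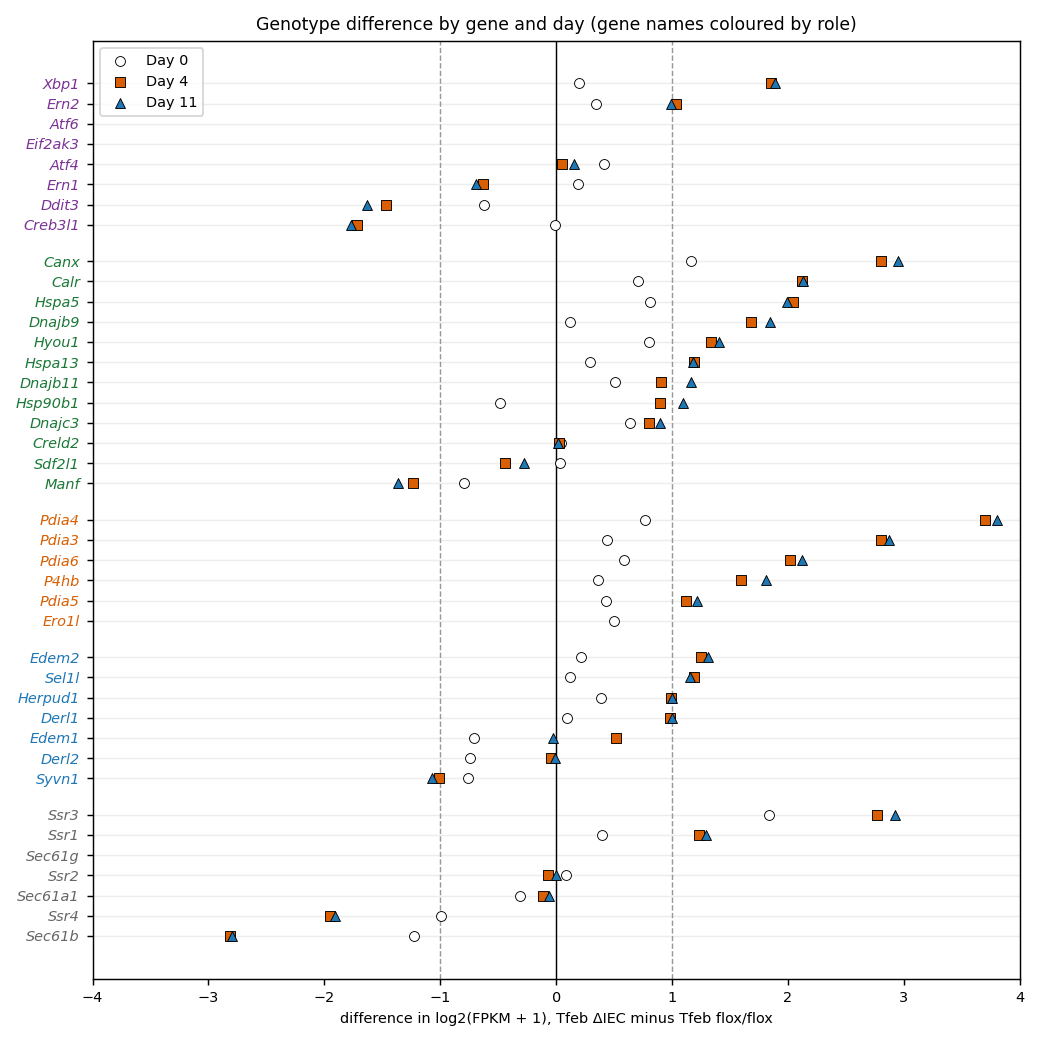
Difference in log2(FPKM + 1), Tfeb ΔIEC minus Tfeb flox/flox, for each member with at least 1 FPKM in either genotype on Day 0 (circles), Day 4 (squares) and Day 11 (triangles), with dashed lines at 2-fold and members grouped by role in the same order. The Day 4 and Day 11 symbols nearly coincide except for Edem1, from -2.81 for Sec61b to 3.70 for Pdia4 on Day 4, and most Day 0 symbols lie within 2-fold.

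ER-associated degradation pulls failed proteins back to the cytosol, and 2 of its 7 members were higher and 1 was lower on both Day 4 and Day 11, while of all genes 25.6% were higher and 26.1% lower on Day 4. The count turned on the scale. On Day 4 it was 4 higher and 1 lower with a pseudocount of 0.1, by which 32.6% of all genes were higher and 30.7% lower, and 5 higher and none lower after division by the group sum, by which 42.2% of all genes were higher. It was none higher and 1 lower after subtraction of the median of genes of like length (Edem2 0.71, Sel1l 0.82), and none in either direction with a pseudocount of 5 (Edem2 0.72, Sel1l 0.53). Edem2, a mannosidase-like protein that marks glycoproteins for removal, had the largest difference on Days 4 and 11 on the log2(FPKM + 1) scale, at 6.53 and 7.75 FPKM on Day 0, 2.57 and 7.49 on Day 4, and 2.49 and 7.63 on Day 11. Sel1l and Syvn1 encode the scaffold and the ubiquitin ligase of 1 complex, and they differed in direction. Sel1l was at 1.08 FPKM in Tfeb flox/flox and 3.75 FPKM in Tfeb ΔIEC on Day 4, and Syvn1 was at 3.17 and 1.07. On Day 4 Syvn1 was within 2-fold with a pseudocount of 5 (-0.43) and after division by the group sum (-0.46). It was at 3.34 and 1.57 FPKM on Day 0, within 2-fold on the log2(FPKM + 1) scale. Herpud1, a stress-induced adaptor of that complex, was at 15.2 and 31.1 FPKM on Day 4 and Derl1, a channel component, at 2.87 and 6.63, both just inside 2-fold on that scale. Derl2 was at 12.5 and 12.2 FPKM on Day 4 and at 12.9 and 12.9 on Day 11. Edem1 was the member whose 2 later days differed most in Tfeb ΔIEC, at 3.52 FPKM on Day 4 and 2.08 on Day 11.

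The translocon members stood apart from each other in both directions. Ssr3, a subunit of the TRAP complex that assists Sec61, was at 10.5 FPKM in Tfeb flox/flox and 39.9 FPKM in Tfeb ΔIEC on Day 0, 3.84 and 31.9 on Day 4, and 3.04 and 29.7 on Day 11. Ssr4, another subunit of the same complex, was at 255 and 127 FPKM, 530 and 136, and 555 and 147. Ssr2 was at 91.9 and 97.4, 90.6 and 86.4, and 93.8 and 93.9 FPKM. Ssr1 was at 2.46 and 7.15 FPKM on Day 4. Subunits of 1 complex thus stood at 2.77 (Ssr3), -1.95 (Ssr4), -0.07 (Ssr2) and 1.24 (Ssr1) on the log2 scale on Day 4. Sec61b (chr4:47474658-47483242 on the plus strand), a small subunit of the channel, was at 70.4 and 29.5 FPKM on Day 0, 304 and 42.4 on Day 4, and 341 and 48.3 on Day 11. Sec61a1, the pore itself, was at 54.4 and 50.1 FPKM on Day 4. Sec61g, which every cell needs, was listed at 0 in all 6 values, so a listed 0 in these tables does not show that a gene was silent.

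**Figure D3:**
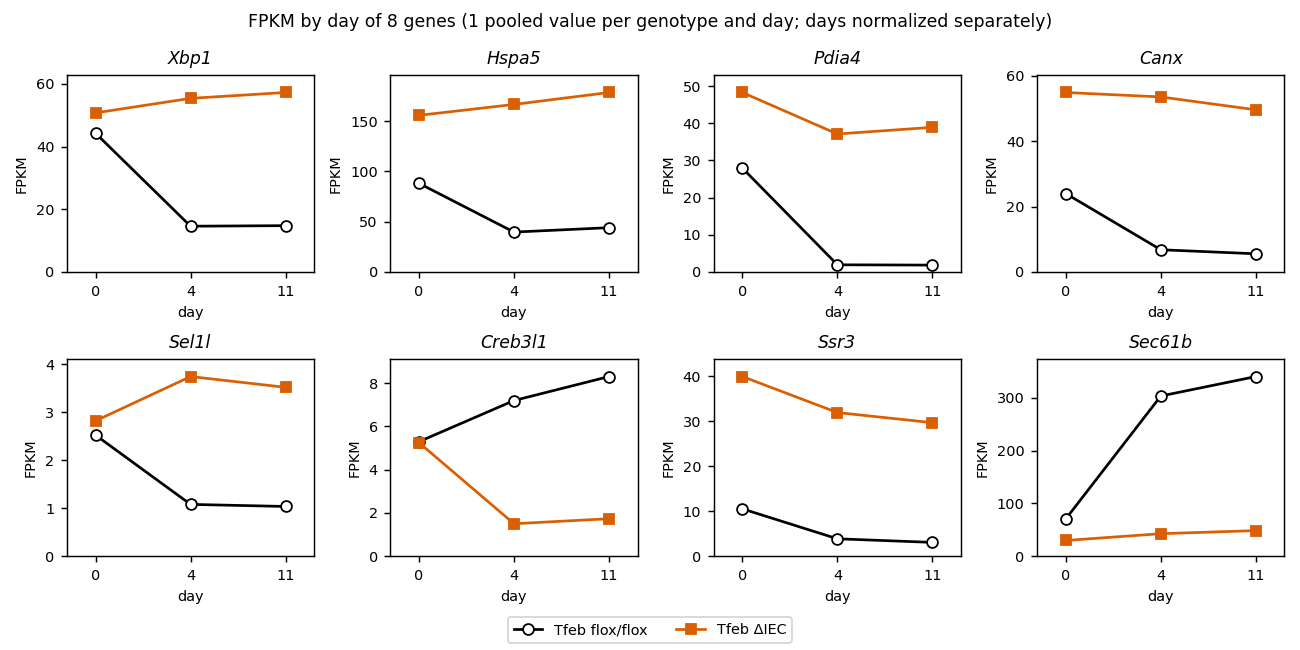
FPKM of 8 members on Days 0, 4 and 11 in Tfeb flox/flox (open circles) and Tfeb ΔIEC (orange squares), 1 pooled value per genotype and day, each panel starting at 0, with lines joining days that were normalized separately. For Xbp1, Hspa5, Pdia4, Canx, Sel1l and Ssr3 the Tfeb flox/flox value is lower on Day 4 than on Day 0 (Xbp1 from 44.3 to 14.6 FPKM) while Tfeb ΔIEC stays within 2-fold, and Creb3l1 and Sec61b show other patterns.

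Set side by side across days, the members were lower on Day 4 than on Day 0 in Tfeb flox/flox more than in Tfeb ΔIEC. In Tfeb flox/flox, 14 of the 36 members with at least 1 FPKM on either day were at least 2-fold lower on Day 4 and 3 were higher, with a median of -0.76, while of all 9617 genes 25.7% were lower and 17.5% higher, with a median of -0.20. In Tfeb ΔIEC, 1 of 37 members was lower and 1 was higher, with a median of -0.04, while 15.6% of all genes were lower and 9.26% higher, with a median of -0.20. The 14 lower members in Tfeb flox/flox included all 5 isomerases, Hspa5, Calr, Canx, Hsp90b1, Xbp1 and Ern2. The 17 members that were higher in Tfeb ΔIEC on Day 4 were all above 0 in the genotype difference on Day 0, 2 of them by 2-fold or more. On Day 0, 27 of 37 members and 5269 of 9993 genes were above 0. All 17 have transcripts of 1500 nt or more, and over all genes of that length the Day 0 median was 0.28. Between Days 4 and 11, the ratio of a member to its own earlier value ranged from 0.791 for Ssr3 to 1.15 for Creb3l1 in Tfeb flox/flox and from 0.592 for Edem1 to 1.19 for Sdf2l1 in Tfeb ΔIEC. Because the days were scaled separately and differ in the animals used, these shifts describe the tables and were not tested. They were not repeated after division by the group sum.

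Transcript length moved with the genotype difference, in the members and in all genes. Length was the median over the basic GENCODE M21 transcripts of a gene. On Day 4 the median difference was -1.89 over genes up to 485 nt and 0.65 over those of 2828 to 3482 nt. The translocon members nearly followed this order, with Sec61b (564 nt), Ssr4 (782.5 nt), Ssr2 (839.5 nt), Ssr1 (1825 nt) and Ssr3 (2213 nt) at -2.81, -1.95, -0.07, 1.24 and 2.77, but Sec61a1 (3172 nt) at -0.12. Among the 28 members of 1500 nt or more on Day 4, 17 were higher (60.7%) and 3 lower, with a median of 1.19, while of all 5645 genes of that length 32.1% were higher and 12.3% lower, with a median of 0.51. Among the 4 members under 1000 nt, 3 were lower, while 58.3% of all such genes were. Spearman's rho between length and difference was 0.41 over 36 members and 0.38 over 9353 genes, given as a description since all points come from the same libraries. The part of length in the result was not tested.

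**Figure D4:**
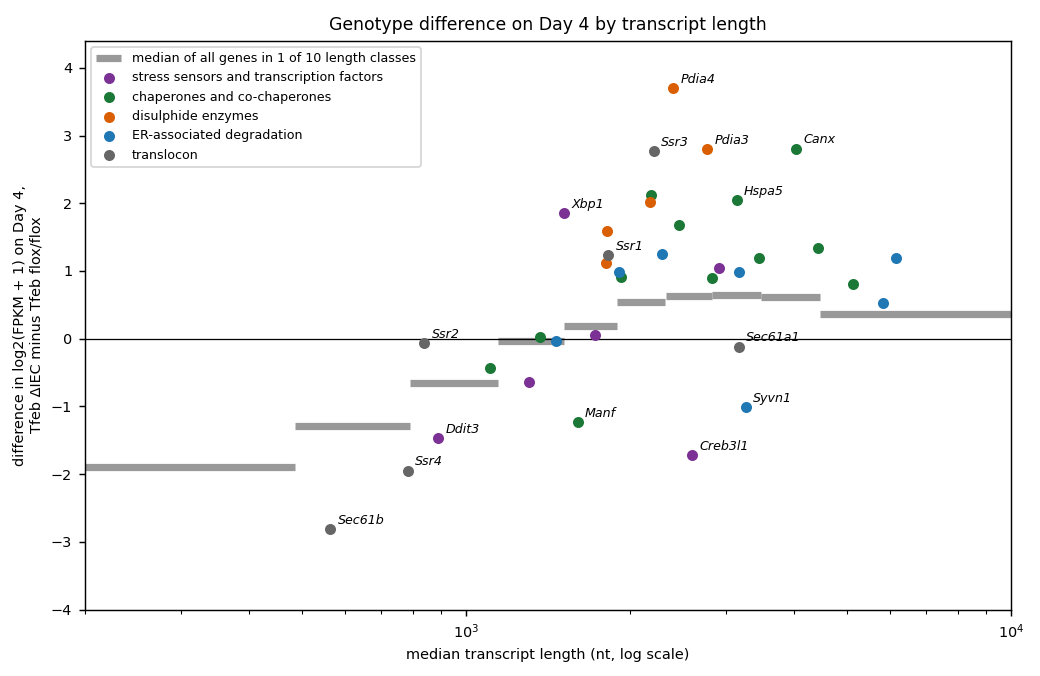
Difference in log2(FPKM + 1) on Day 4, Tfeb ΔIEC minus Tfeb flox/flox, against median transcript length on a log axis, with members as points coloured by role and grey bars for the median of all genes in each of 10 length classes. The grey bars go from -1.89 for the shortest genes to 0.65, and Pdia4, Pdia3, Canx, Ssr3 and Xbp1 lie more than 1.8 above their bars, while Creb3l1 lies 2.35 below its own.

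After subtraction of the median of its length class (10 classes with about the same number of genes each), 11 of 36 members were still at least 2-fold higher on Day 4 (30.6%, with 20.1% of all genes) and 4 were lower (11.1%, with 20.8%), with a median of 0.44. The largest were Pdia4 at 3.06, Ssr3 at 2.23, Canx at 2.19, Pdia3 at 2.16 and Xbp1 at 1.89, followed by Calr, Pdia6, P4hb, Hspa5, Ssr1 and Dnajb9 between 1.04 and 1.59. The 4 lower members were Creb3l1 at -2.35, Syvn1 at -1.66, Sec61b at -1.52 and Manf at -1.43, so Ssr4 and Ddit3 were within 2-fold of the median of genes of their length. On Day 11, 11 members were higher and 5 lower on this scale, with Ddit3 as the fifth, and 20.1% and 21.1% of all genes.

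Genes with and without the ERSE shown above had overlapping differences. Of the 8 members with the element, 4 were higher (Hspa5, Calr, Canx and Pdia6) and Syvn1 was lower on Day 4, with a median of 1.46 and a range from -1.01 to 2.80. Of the 20 members whose promoter lacked it and that reached 1 FPKM, 10 were higher and 3 lower, with a median of 1.05 and a range from -2.81 to 3.70. Of the 8 members that reached 1 FPKM and had no promoter matched, 3 were higher and 2 lower, with a median of 0.45. Of all genes, 25.6% were higher and 26.1% lower. Creld2, whose window carries the element, held its level, and Pdia4, whose window does not, had the largest difference on Day 4.

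Other genes of the same pathways, from lists that do not overlap with the members, gave mixed counts on Day 4. Of 11 genes of the integrated stress response that reached 1 FPKM, 2 were higher and 1 lower, with Asns, the asparagine synthetase and a target of ATF4, at 1.33 FPKM in Tfeb flox/flox and 5.77 FPKM in Tfeb ΔIEC, and Nupr1, a stress-induced chromatin protein, at 336 and 51.8. Of 12 further ER stress factors, 5 were higher and 2 lower. The highest was Tmbim6, an ER membrane protein that protects against cell death, at 117 and 491 FPKM. The next was Rtcb, the ligase that joins the ends of Xbp1 mRNA after IRE1 has cut it, at 8.21 and 34.4 FPKM. Bloc1s1, whose mRNA is itself a substrate of IRE1, was the lowest at 65.3 and 4.67 FPKM. Its transcript length is 550 nt, and 60.8% of all genes of 486 to 789 nt were lower on Day 4. IRE1 activity was not measured.

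Further folding enzymes were split, with 7 higher and 8 lower of 23 and a median of -0.51. Tmx1, a membrane-bound disulphide isomerase, was at 0.656 FPKM in Tfeb flox/flox and 16.4 FPKM in Tfeb ΔIEC on Day 4, and Fkbp11, a prolyl isomerase of secretory cells, was the lowest at 12.7 and 2.11. Agr2, the isomerase that goblet cells use for mucin, was at 12286 and 3436 FPKM. Of 21 further genes of ER-associated degradation, 4 were higher and none was lower, with a median of 0.61. Vcp, the ATPase that extracts proteins from the ER membrane, was at 0.814 and 12.7 FPKM, and Faf2, its recruiter, at 2.09 and 14.6. Of 28 further genes of translocation, signal peptide removal and glycosylation, 6 were higher and 8 lower. The highest was Spcs3, a signal peptidase subunit, at 1.18 and 12.5 FPKM. Ost4, a small subunit of the oligosaccharyltransferase, was the lowest at 132 and 15.7 FPKM. Other subunits of that enzyme lay on either side, with Rpn1 at 25.7 and 134 FPKM, Dad1 at 537 and 114 FPKM, and the catalytic Stt3a at 23.8 and 22.3 FPKM. Tmx1 and Vcp, like some others counted as higher in these lists, reached 1 FPKM only in Tfeb ΔIEC. The background shares for these counts are those given above for Day 4, and they do not take length into account. Of the lower genes named, Bloc1s1, Fkbp11 (734 nt) and Agr2 (784 nt) fall between 486 and 789 nt. Nupr1 (829 nt) and Ost4 (860 nt) fall between 790 and 1144 nt, where 38.0% of all genes were lower. Dad1 is longer, at 2184.5 nt.

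Markers of epithelial, secretory and immune cells were read beside these values, since bulk RNA cannot tell fewer cells of a type from less RNA per cell. Of the 8 epithelial markers 3 were higher on Day 4, which were Cdh1 (24.5 and 164 FPKM), Krt20 (101 and 931 FPKM) and Vil1 (30.6 and 224 FPKM), and none was lower, with list sums of 11100 and 12400 FPKM. The 9 goblet cell markers summed to 150000 FPKM in Tfeb flox/flox and 22800 FPKM in Tfeb ΔIEC on Day 4, with 5 lower and 2 higher, and to 40300 and 24500 on Day 0. Muc2, the defining goblet mucin, was higher in Tfeb ΔIEC, at 645 and 1894 FPKM on Day 4, while Tff3 was at 28759 and 2166 and Fcgbp at 1579 and 145. The largest goblet values in Tfeb flox/flox were of short transcripts, Spink4 (397 nt, 71372 and 6468 FPKM), Zg16 (659 nt, 34794 and 7393 FPKM) and Tff3 (493 nt). Over all genes the median difference on Day 4 was -1.89 up to 485 nt and -1.29 from 486 to 789 nt. Muc2 is at 711 nt and Fcgbp at 7927 nt. Of the 8 colonocyte markers, which summed to 25500 and 27900 FPKM, 5 were higher and none was lower. All 5 Paneth cell markers that reached 1 FPKM were below 0 in the difference on Day 4, with sums of 5440 and 661 FPKM. The largest in Tfeb flox/flox were short as well, Ang4 (709 nt, 3526 and 649 FPKM) and Defa24 (419 nt, 1610 and 3.18 FPKM). The part of length in these marker sums was not tested. Plasma cells also express Xbp1 and these enzymes strongly. On Day 4 their defining marker Mzb1 was listed at 0 in both genotypes, and Jchain was at 0 and 0.523 FPKM. Of the other plasma cell markers, Igkc was at 98.8 and 33.1 FPKM, Igha at 23.7 and 19.7 FPKM and Sdc1, which epithelium also expresses, at 9.91 and 40.3 FPKM. The 10 plasma cell markers in the table summed to 134 and 93.8 FPKM with 5 at 0 in each genotype. Ptprc, the defining leukocyte marker, was at 0.362 and 0.790 FPKM, and the immune list summed to 33.7 and 179 FPKM, with 6 and 4 of its rows at 0. Cd74 alone, an MHC class II chaperone, made up 20.5 and 165 FPKM of these sums. The part of these cell types in the differences of the members was not tested.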

How the data were processed

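Epithelial cells of 12 animals were profiled. Per the labels and the study's methods, the authors made full-length cDNA by a SmartSeq2 variant, mapped reads to mm10 with TopHat2 2.0.14 and ran Cuffdiff 2.1.1 on each day. The 3 deposited tables hold 1 FPKM value per gene and genotype, which combines 2 animals. They also hold the authors' own fold changes and p-values, which were not used. Differences were computed on log2(FPKM + 1) for genes with at least 1 FPKM in either genotype, and 2-fold was counted. The read depth is not given, so no interval is printed. The most common low value of FPKM times kilobases, among genes with 1 transcript of over 1500 nt, was read as about 1 fragment. It is called a step here and ran from 0.27 to 0.59 over the 6 values. Between Days 4 and 11 it went from 0.59 to 0.49 in Tfeb flox/flox and from 0.27 to 0.37 in Tfeb ΔIEC. Counts of steps are therefore rough. Whole reads could not be recovered.

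The members and the gene lists were chosen with earlier results of these data known. All members are accounted for. Values are given for Xbp1, the sensors, the largest and smallest difference in each role and others that a result turns on, for the largest differences in each pathway list, for defining markers and for Tfeb. Some further members, Agr2, Rpn1, Dad1, Stt3a and markers other than the defining ones were named after their values were seen. Coordinates are those of GENCODE M21 on GRCm38, counted from 1, and promoters are from RefSeq. Each choice was varied in turn: the pseudocount (0.1 or 5), the filter (none or 5 FPKM), the fold (4), division by the group sum, and centring on the median of the day or of a length class. Computation used pandas 2.3.3, numpy 2.4.6 and scipy 1.17.1 under Python 3.11.15, and plots matplotlib 3.10.9. The calling step was run on values changed by exactly 4-fold without noise, which checks the arithmetic and not how reliable the calls are.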

Additional observations from a re-analysis of the deposited data

How the results depend on the processing

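No paired analysis was possible because each genotype has 1 pooled value per day, and for the same reason no replicate could be left out. The median over the members did not change sign on any day under any alternative run. On Day 4 the numbers of members higher and lower were 9 and 3 with a pseudocount of 5 (9.33% and 13.6% of all genes, member median 0.55), and 7 and 1 at 4-fold (7.36% and 10.3%). On Day 11 they were 10 and 3 (9.28% and 13.6%, median 0.57), and 6 and 1 (7.46% and 10.2%). Division by the group sum gave 3 lower on both days, with medians of 1.68 and 1.65. Centring on the length class gave 11 higher on both days. On Day 0, a pseudocount of 0.1 gave 3 lower (20.5% of all genes), 4-fold gave 0 and 0 (2.09% and 3.35%), centring on the median of the day gave 2 lower (17.2%), and centring on the length class gave 1 higher and 2 lower (11.8% and 11.7%). The other counts over all members stayed within 1.5 times the values given, whereas counts within a role moved further. With a pseudocount of 5 on Day 4, the sensors and factors went from 2 higher and 2 lower to 1 and 0. The translocon members that were higher went from 2 to 1. Pseudocounts shift low genes by construction, and the cause of the other shifts was not tested. On Day 4 the values worth under 8 steps were those of Ern1 and Eif2ak3, of Ddit3 in Tfeb ΔIEC, and of Hspa13, Hyou1, Ero1l, Atf6, Dnajb9, Pdia5, Ssr1 and Pdia4 in Tfeb flox/flox, beside Sec61g at 0.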
